A study of Mus musculus with 72 samples.

Results

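Bcl6b and its neighbours Slc16a11 and Slc16a13, 3 adjoining genes on mouse chromosome 11, were followed through all 72 RNA-seq libraries of 6 mouse melanoma lines. They are 3 of the 50600 genes in the count table. Bcl6b was chosen by its own counts, which go from 0 in mock-treated cells of line 1057 to above 0 under GRP and under RC, so its treatment values are given below as a description, without a test. Slc16a11 and Slc16a13 were chosen by position, as the genes beside it, and the comparison asks whether they move with Bcl6b.

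The lines were established from melanomas of transgenic mice and carry Tyr::NRASQ61K/°, an activated NRAS under the tyrosinase promoter. Lines 1057 and 1064 are female, of genotype Tyr::NRASQ61K/°; Cdkn2a-/-;Tyr::CreA/°;Cdh1dF/dF, carry Cre under the tyrosinase promoter, and express Grpr of their own. Line 1181 is male (Tyr::NRASQ61K/°; Cdkn2a-/-;°/°;Cdh1dF/dF, with no Cre) and line 1014 is female (Tyr::NRASQ61K/°). The paper names 1181 and 1014 as lines with E-cadherin, the product of Cdh1, and 1057 as a line without it. Lines 1181 and 1014 were each given a CMV::Grpr/tGFP vector (1181-Grpr, 1014-Grpr) or CMV::tGFP alone (1181-Ctrl, 1014-Ctrl), so the Grpr there is driven by a viral promoter. After 18 h in 0.5% serum the cells received, for 4 h, mock (0.1% DMSO), 10 nM GRP, 1 µM RC or GRP+RC, giving 3 libraries for each line and treatment. GRP, gastrin-releasing peptide, is the ligand of the receptor GRPR, a G-protein-coupled receptor, and RC (RC-3095) is an antagonist of that receptor. The study's methods describe its cell culture experiments as biological replicates, the labels do not say how the libraries of a group were separated, and p-values measure the spread between these libraries.

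Bcl6b (BAZF, ENSMUSG00000000317) encodes a transcriptional repressor of the BTB and zinc-finger family, close to BCL6 in its DNA-binding domain. It is known from endothelium, from T-lymphocytes and from spermatogonial stem cells, where it is among the genes that GDNF switches on and that keep the cells renewing. Slc16a11 (MCT11, ENSMUSG00000040938) and Slc16a13 (MCT13, ENSMUSG00000044367) encode proteins of the monocarboxylate transporter family, whose best-known members carry lactate and pyruvate across membranes. Both are known from liver, and the locus from human genetics of type 2 diabetes.

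On GRCm38, Slc16a11 lies on the plus strand of chromosome 11 from 70212752 to 70216417, Slc16a13 on the minus strand from 70216789 to 70221064 and Bcl6b on the minus strand from 70224128 to 70229798. Slc16a11 and Slc16a13 therefore end towards each other, with 371 bases between their annotated ends, and Bcl6b lies upstream of Slc16a13 on the same strand, 3063 bases away. All 3 are protein-coding, and their exons overlap no exon of another annotated gene. The column of strand that the authors counted is not given in the sources used here. RefSeq's promoter windows (GRCm38.p6) held an entry for 1 of the 3 genes, Slc16a11, at chr11:70213660-70213959 on the plus strand. Slc16a11, like Bcl6b, went from no count to detected in line 1057. The start that the window refers to, 70213910, is that of a shorter transcript and lies inside the gene as annotated from 70212752, and much of the window lies in an exon of the longer transcript and is not printed. The stretch just before 70213910, chr11:70213878-70213909, is in no annotated exon and is shown with CpG dinucleotides in capitals.

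Slc16a11: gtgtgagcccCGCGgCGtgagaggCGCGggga

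The stretch of 32 bases holds 5 CpG dinucleotides, the window of 300 bases holds 20, and 58% of the window's bases are G or C. Both strands of the window were searched for sites of factors that act downstream of growth signals. It held no match to the AP-1 site TGANTCA, which 7.81% of the 32851 promoter windows hold, to the cAMP response element TGACGTCA (1.79%) or its shorter form TGACG (20.8%), to the EGR site GCGNGGGCG (5.55%), to the TEAD site GGAATG (14.7%), to the CArG box (1.63%) or to the ETS core CCGGAA (14.9%). The shorter cAMP form lies within the longer one. These letters are absent from this window, which says nothing of sites elsewhere.

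Library totals ranged from 19512882 to 46862053 counted reads, so that 3 counts, taken as the floor of a library, correspond to 0.064 to 0.154 CPM (the count scaled to the raw library total). CPM values below were scaled by TMM factors computed within a line, except the label checks in the rest of this paragraph and the mean levels per line of Dct, Egfl7 and Vwf, which were scaled over all 72 libraries. Floors cover counting error only, and 95% intervals of log2 fold changes include the spread between libraries. All 7 melanocyte markers passed the filter on low counts in all 6 lines, 1 of them (Tyrp1, in 1057) being called for GRP, with Dct, which encodes a melanin enzyme, between 247 CPM in 1181-Ctrl and 2.24e+04 CPM in 1014-Grpr. Grpr was above 8 CPM in the libraries labelled with the receptor and below 0.1 CPM in those without it, except in 2 libraries. The library labelled 1014-Ctrl mock 2 held 48.1 CPM of Grpr and 64.2 CPM of the Y-linked Ddx3y, although the line is female and without receptor. The library labelled 1181-Grpr GRP+RC 2 held 0 CPM of both genes. Results that rest on these 2 libraries are given with and without them. In the other 1181-Grpr libraries Xist had a median of 208 CPM beside 58.7 CPM of Ddx3y, whereas in 1181-Ctrl it had a median of 0.336 CPM.

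Bcl6b was counted most in 1014-Grpr treated with GRP. The 3 mock libraries of that line held 1, 4 and 0 counts, and the GRP libraries held 138, 173 and 156. Every GRP library lay above every mock library, as was the case for 21.6% of genes tested in this line. The mean went from 0.0526 ± 0.0635 to 5.03 ± 1.28 CPM (SD, n = 3), a ratio of 95.6 that rests on 5 mock counts. Without replicate 2 the means were 0.0173 and 4.6 CPM, so the size of the ratio is not fixed by these libraries. In RNA from bulk cultures, more cells with the transcript and more transcript per cell cannot be told apart. Grpr itself was called higher under GRP in this line (log2 fold change 2.10, SE 0.182, adjusted p = 7.52e-06, edgeR), and its part in the level of Bcl6b was not tested. In 1064 it was called lower (−1.01, SE 0.156, adjusted p = 0.00788, edgeR). Under RC alone the libraries held 0, 0 and 2 counts, at or under the floor. Under GRP+RC they held 10, 21 and 13, a mean of 0.627 ± 0.22 CPM (SD, n = 3), all below the GRP libraries and all above mock. The GRP+RC mean was 0.125 of the GRP mean.

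In line 1057 the 3 mock libraries held no count of Bcl6b. Under GRP they held 15, 13 and 11 counts, a mean of 0.38 ± 0.0795 CPM (SD, n = 3), at least 13.8-fold higher than the floor of 3 counts over the mock group. Under RC alone each of the 3 libraries held 5 counts, a mean of 0.146 ± 0.0168 CPM (SD, n = 3), at least 5.3-fold higher than that floor. RC therefore lay above mock and below GRP in every library. Under GRP+RC the libraries held 23, 7 and 16 counts, a mean of 0.431 ± 0.208 CPM (SD, n = 3), which overlapped GRP at 1.14 times its mean. The GRP+RC level was thus below GRP in 1014-Grpr and not in 1057, although the difference between the lines was not tested.

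In 1181-Grpr the highest counts of Bcl6b lay in 1 replicate number. Replicate 3 held 23 counts in mock, 50 under GRP, 32 under RC and 45 under GRP+RC. Replicate 1 held 0, 31, 2 and 1 counts in the same order, and replicate 2 held 2, 2, 2 and 0, the last of these being the library that went against its label. The mock mean was 0.316 ± 0.472 CPM and the GRP mean 0.915 ± 0.838 CPM (SD, n = 3), and the groups overlapped. In 1064 no library held more than 3 counts, in any treatment. The controls held 0 to 2 counts per library, with 6 counts over the 12 libraries of 1181-Ctrl and 7 over those of 1014-Ctrl.

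Ordered by the authors' TPM, which accounts for gene length, 1014-Grpr under GRP came first for Bcl6b at 4.51 ± 1.14 TPM (SD, n = 3), above every library of the next group, 1181-Grpr under GRP at 0.867 ± 0.781 TPM (SD, n = 3). From there down to 1057 under RC at 0.127 ± 0.0115 TPM (SD, n = 3), each group overlapped with the next in the order. Every library of 1057 under RC lay above every library of 1064 under GRP, which followed at 0.0667 ± 0.0252 TPM (SD, n = 3). Other groups held 0 to 0.05 TPM.

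**Figure D1:**
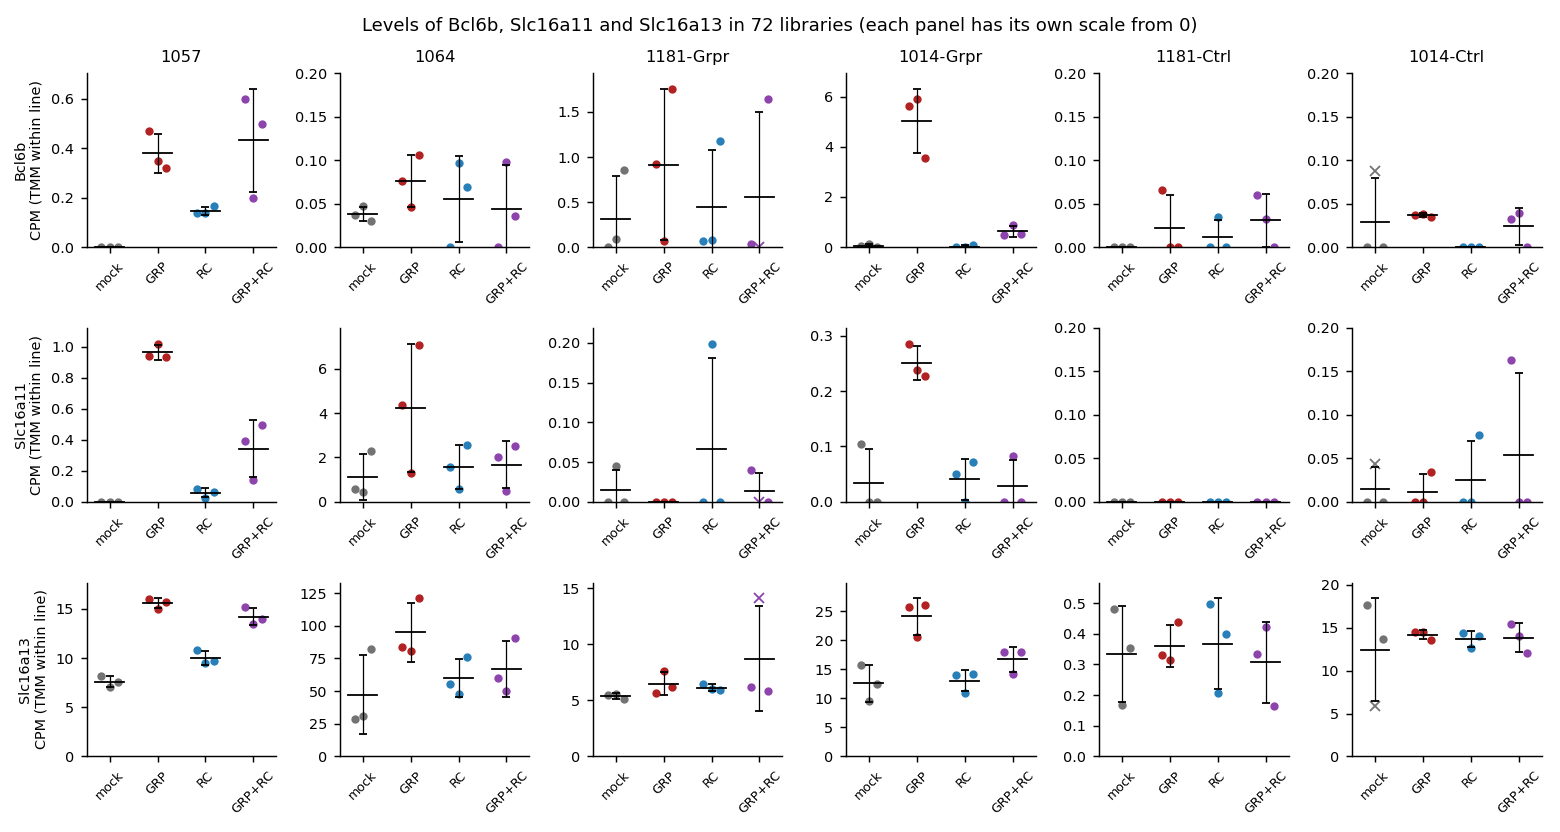
Level in CPM (TMM within line, vertical axis, a separate scale from 0 in each panel) of Bcl6b, Slc16a11 and Slc16a13 (rows) in the 6 lines (columns) under mock, GRP, RC and GRP+RC. Points are single libraries, 3 per group, crosses are the 2 libraries that went against their labels, and bars show the mean and SD, cut at 0. Bcl6b stands at 0 in the mock libraries of 1057 and at 0.38 CPM on average under GRP, and Slc16a13 goes from 7.58 to 15.6 CPM there.

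Slc16a11, the neighbour furthest from Bcl6b, also went from no count to detected in 1057. The mock libraries held 0, 0 and 0 counts, and the GRP libraries 30, 38 and 32, a mean of 0.964 ± 0.048 CPM (SD, n = 3), at least 35-fold higher than the floor of 3 counts over the mock group. Slc16a11 passed the filter on low counts there only through its GRP and GRP+RC libraries, so no test against mock is given for it in this line. Under RC alone the libraries held 3, 1 and 2 counts, a mean of 0.0583 ± 0.0278 CPM (SD, n = 3). Per length, Bcl6b stood above Slc16a11 in every RC library, at 0.127 ± 0.0115 against 0.07 ± 0.0361 TPM (SD, n = 3), and below it in every GRP library, at 0.327 ± 0.0737 against 1.2 ± 0.0513 TPM (SD, n = 3).

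Under GRP+RC, Slc16a11 in 1057 held 15, 5 and 16 counts, a mean of 0.343 ± 0.183 CPM (SD, n = 3). All 3 libraries lay above mock (at least 12.5-fold over the floor) and below GRP. The GRP+RC mean was 0.356 of the GRP mean. Slc16a11 passed the filter through these same groups, with GRP the higher, so no test of that difference is given either. A call here means an adjusted p under 0.05 with an absolute log2 fold change above 1. Tests were quasi-likelihood tests of edgeR, with Benjamini-Hochberg adjustment over all genes tested. Of all genes in 1057, 0.888% were called for RC against mock, 3.47% for GRP+RC against mock and 1.02% for GRP+RC against GRP. In the same libraries Bcl6b under GRP+RC was not below GRP.

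In 1064 Slc16a11 was detected already in mock cells, with 16, 9 and 76 counts. Under GRP it held 115, 28 and 200, under RC 45, 18 and 73, and under GRP+RC 63, 15 and 71. The groups overlapped, and replicate 3 was the highest in every treatment. Mean levels were 1.11 ± 1.04 CPM in mock and 4.24 ± 2.89 CPM under GRP (SD, n = 3), and the log2 fold change of 1.91 (SE 0.844) was not called (adjusted p = 0.216, edgeR), where 2.32% of genes were. Same-numbered libraries of 1064 deviated together, and in a fit blocked on that number the log2 fold change was 1.95 (SE 0.254, adjusted p = 2.57e-04, edgeR) and was called, as were 6.52% of genes. Within a number GRP stood at 7.41, 3.03 and 3.06 times mock. In the same paired fit GRP+RC was below GRP by a log2 fold change of −1.32 (adjusted p = 0.00512, edgeR), where 1.93% of genes were called, and without the block it was not called (adjusted p = 0.684). Bcl6b, at 0 to 3 counts in all 12 libraries of this line, was at or under the floor while Slc16a11 rose in the paired fit.

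Slc16a11 was too low to pass the filter in the other 4 lines and has no test there. In 1014-Grpr it held 3, 0 and 0 counts in mock and 7, 7 and 10 under GRP, a mean of 0.251 ± 0.0306 CPM (SD, n = 3), with no overlap between the groups. Under RC it held 1, 0 and 2 counts and under GRP+RC 0, 2 and 0, near the mock level. In 1181-Grpr it held 7 counts over 12 libraries, in 1014-Ctrl 9, and in 1181-Ctrl 0. In 1 fit of the 4 lines that express Grpr, with line as a covariate, the GRP effect on Slc16a11 was 2.67 on the log2 scale (SE 0.511, adjusted p = 8.14e-05, edgeR) and was called, as were 2.93% of 16299 genes, and 2.63 (adjusted p = 6.46e-05, edgeR) without the 2 libraries that went against their labels. GRP+RC against GRP was −1.52 (SE 0.471, adjusted p = 0.0421, edgeR), against 0.847% of genes called, and −1.50 (adjusted p = 0.0417, edgeR) without those 2 libraries. That call was lost with DESeq2 (adjusted p = 0.0765), without the filter on low counts (adjusted p = 0.0598, edgeR) and without any of the 3 replicate numbers, at 0.163, 0.0808 and 0.166 without replicates 1, 2 and 3 (edgeR).

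**Figure D2:**
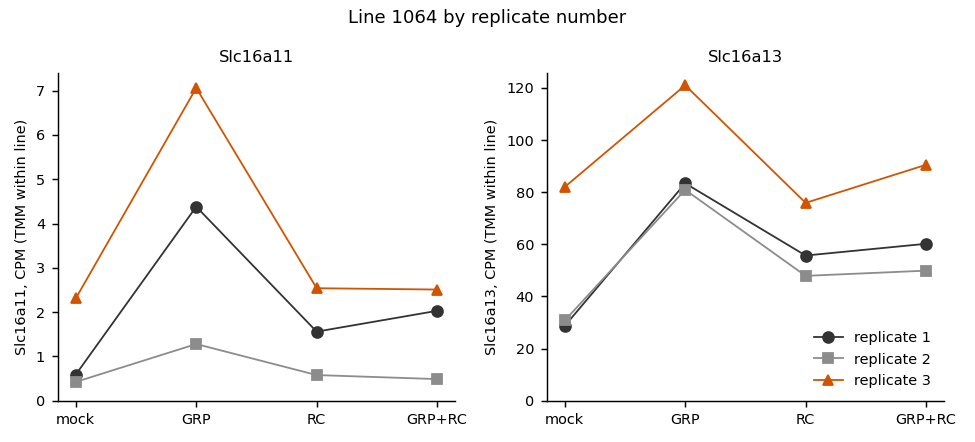
Slc16a11 (left) and Slc16a13 (right) in line 1064, in CPM (TMM within line, vertical axis from 0) under mock, GRP, RC and GRP+RC, with a line joining the 4 libraries of the same replicate number. Replicate 3 lies highest in every treatment for both genes, and each number has its highest value under GRP.

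Slc16a13, which lies between the other two, was detected in all 6 lines before treatment. Its GRP mean stood at 2.06, 2.02 and 1.91 times mock in 1057, 1064 and 1014-Grpr and at 1.21 times mock in 1181-Grpr. In 1057 the mock libraries held 298, 253 and 275 counts and the GRP libraries 511, 560 and 539. Every GRP library lay above every mock library. The mean went from 7.58 ± 0.558 to 15.6 ± 0.51 CPM (SD, n = 3), a log2 fold change of 1.04 (SE 0.0716, adjusted p = 7.09e-10, edgeR), which was called, as were 6.46% of the 14195 genes tested. Of all genes tested in 1057, 27.6% had all 3 GRP libraries above all 3 mock libraries.

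Under RC alone Slc16a13 was also higher in 1057, by less than the fold that defines a call. The RC libraries held 398, 349 and 294 counts, a mean of 10 ± 0.674 CPM (SD, n = 3). All lay above mock, at a log2 fold change of 0.40 (SE 0.0757, adjusted p = 7.19e-04, edgeR). An adjusted p under 0.05 at any fold was met by 24.3% of genes in that comparison. In 1 fit of all 72 libraries neither RC (adjusted p = 1) nor GRP+RC (adjusted p = 0.0539, edgeR) against mock passed for Slc16a13. Under GRP+RC the libraries held 584, 478 and 450 counts, a mean of 14.2 ± 0.845 CPM (SD, n = 3), with a log2 fold change of 0.91 against mock (SE 0.0722, adjusted p = 9.37e-09, edgeR), an adjusted p under 0.05 being met by 44.3% of genes. The difference from GRP, −0.13 on the log2 scale (95% interval −0.26 to 0.00), did not pass the test (adjusted p = 0.186, edgeR). Slc16a13 was thus above mock in each RC and GRP+RC library of 1057, a separation whose share over all genes was not computed. Slc16a11 was separated too, but under RC this rests on 3, 1 and 2 counts, at or under the floor. Bcl6b was chosen for counts of 0 in mock and above 0 under RC. Its own separation was therefore fixed in advance and adds nothing on whether the genes move together. The GRP+RC libraries lay below GRP for Slc16a11, whereas for Slc16a13 and Bcl6b they overlapped GRP.

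In 1064 Slc16a13 stood highest of all lines. The mock libraries held 777, 653 and 2702 counts and the GRP libraries 2189, 1764 and 3434. The mean of 47.2 ± 30.2 CPM in mock and 95.2 ± 22.6 CPM under GRP (SD, n = 3) gave a log2 fold change of 1.01 (SE 0.397), which was not called (adjusted p = 0.163, edgeR). In the fit blocked on replicate number it was 1.12 (SE 0.17, adjusted p = 5.70e-04, edgeR) and was called, and without replicate 3 it was 1.47 (adjusted p = 0.0103, edgeR). Within a number GRP stood at 2.9, 2.63 and 1.48 times mock. RC stood at 1.94, 1.56 and 0.926 times mock, a log2 fold change of 0.34 (95% interval −0.43 to 1.11, adjusted p = 1, edgeR). GRP+RC gave 0.50 (95% interval −0.27 to 1.27, adjusted p = 1, edgeR).

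In 1014-Grpr Slc16a13 held 457, 309 and 279 counts in mock and 629, 602 and 1142 under GRP, the last of these in a deeper library. The mean went from 12.6 ± 3.14 to 24.1 ± 3.1 CPM (SD, n = 3) with no overlap between the groups, which 21.6% of genes in this line also showed in that direction. The log2 fold change of 0.94 (SE 0.177, adjusted p = 0.00193, edgeR) passed the adjusted p, as did 29% of genes, but not the fold, both of which 4.01% of genes passed. Without replicate 1 it was 1.09 (adjusted p = 0.0162, edgeR), which is a call. RC alone gave 0.05 (95% interval −0.31 to 0.41, adjusted p = 1, edgeR). GRP+RC stood between mock and GRP at 16.7 ± 2.22 CPM (SD, n = 3), all 3 libraries below GRP. The difference from GRP was −0.53 (SE 0.175) and did not pass without the block (adjusted p = 0.0746, edgeR), but did with it (adjusted p = 1.49e-05, edgeR), same-numbered libraries of this line deviating together too. For comparison, the mean of Bcl6b stood at 95.6 times mock in these GRP libraries, where the mean of Slc16a13 stood at 1.91 times mock. The ratio of Bcl6b rests on 5 mock counts, and its size is not fixed by these libraries.

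In 1181-Grpr Slc16a13 held 181, 126 and 136 counts in mock and 191, 210 and 176 under GRP. The GRP libraries lay above mock, narrowly, as they did for 1.34% of genes in this line. The log2 fold change of 0.27 (95% interval −0.32 to 0.86) did not pass the test (adjusted p = 1, edgeR), in a line where 0% of 14506 genes were called by edgeR, 45 had an unadjusted p under 0.05 and DESeq2 called 0. Without the library that went against its label, a fit blocked on replicate number called 16 of 14770 genes for GRP. Slc16a13 was not among them, at 0.26 (adjusted p = 0.406, edgeR). Under GRP+RC the library that went against its label held 340 counts beside 156 and 159. Without it the GRP+RC mean was 6.01 ± 0.284 CPM (SD, n = 2) in place of 8.72 ± 4.7 CPM (SD, n = 3). The high Bcl6b of replicate 3 in this line had no counterpart in Slc16a13, whose 4 libraries of that number held 136 to 176 counts, nor in Slc16a11.

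**Figure D3:**
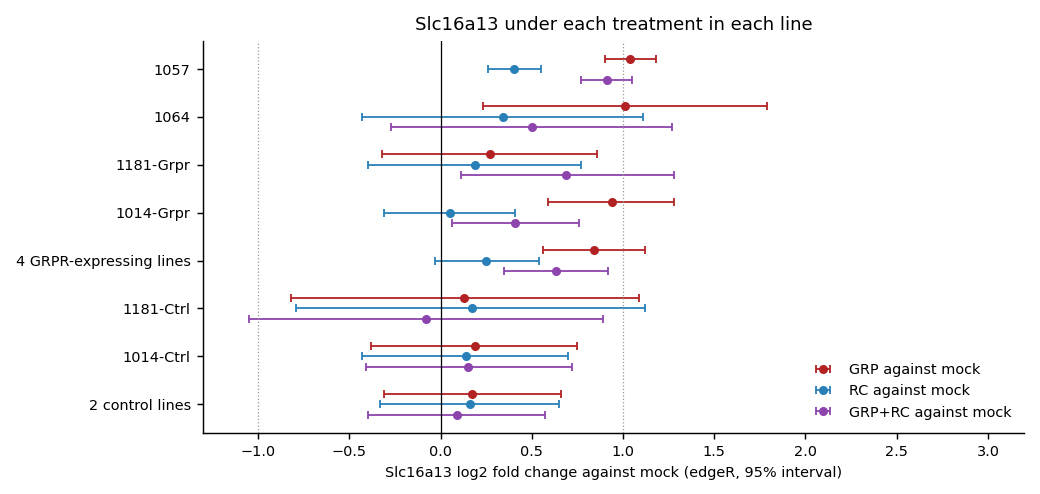
Log2 fold change of Slc16a13 against mock (horizontal axis, point with 95% interval, edgeR, no replicate block) under GRP, RC and GRP+RC in each line and in the fits over the 4 GRPR-expressing and the 2 control lines. Dotted lines mark an absolute log2 fold change of 1. GRP lies at 1.04 in 1057, 1.01 in 1064 and 0.94 in 1014-Grpr, and at 0.13 and 0.19 in the controls.

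Without receptor, Slc16a13 did not pass the test. In 1181-Ctrl it held 4 to 16 counts per library, and GRP against mock was 0.13 on the log2 scale (95% interval −0.82 to 1.09, adjusted p = 1, edgeR). In 1014-Ctrl the mock libraries held 449, 136 and 354 counts and the GRP libraries 387, 377 and 395. The 136 counts come from the library labelled 1014-Ctrl mock 2 that carried Grpr and Ddx3y. GRP against mock was 0.19 (95% interval −0.38 to 0.75, adjusted p = 0.782, edgeR), and −0.15 (SE 0.124, adjusted p = 1, edgeR) without that library. In both controls 0% of genes were called by edgeR, and likewise in the fit over both, with 37, 562 and 523 genes at an unadjusted p under 0.05 in 1181-Ctrl, 1014-Ctrl and both. DESeq2 called 0 in each control and 30 over both, and the fit of all 72 libraries called 392 in 1014-Ctrl. For RC and GRP+RC against mock, DESeq2 called 35 and 38 over both, and the fit of all 72 libraries 394 and 392 in 1014-Ctrl. For GRP+RC against GRP, which does not compare with mock, each called 0. The mock group holds the library 1014-Ctrl mock 2, and neither of these fits was repeated without it.

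The difference of the GRP effect between 1014-Grpr and 1014-Ctrl was tested directly. For Slc16a13 it was 0.75 on the log2 scale (SE 0.355, adjusted p = 0.172, edgeR) with all libraries, where 3.89% of genes were called. Without the library that went against its label it was 1.09 (SE 0.236, adjusted p = 0.00305, edgeR) and was called, as were 2.99% of genes. Between 1181-Grpr and 1181-Ctrl the difference was 0.12 (95% interval −0.99 to 1.23, adjusted p = 1, edgeR). Over the 4 lines with receptor the GRP effect on Slc16a13 was 0.84 (SE 0.144, adjusted p = 1.70e-05, edgeR), an adjusted p under 0.05 being met by 29.4% of genes, and that of GRP+RC was 0.63 (SE 0.145, adjusted p = 0.00889, edgeR), met by 3.99%. Without the 2 libraries that went against their labels these were 0.83 (adjusted p = 3.45e-06, edgeR) and 0.52 (adjusted p = 0.0234, edgeR). The GRP+RC effect did not pass without replicate 1 (adjusted p = 0.0967, edgeR) or replicate 2 (adjusted p = 0.192, edgeR). In 1064 and 1014-Grpr, whose numbers were taken to pair, GRP was above mock in every same-numbered pair for Slc16a13. The ratio of GRP to mock ranged from 1.48 to 2.9 in 1064 and from 1.62 to 2.16 in 1014-Grpr. The share of all genes with such pairs was not computed. The libraries of 1057 and 1181-Grpr were not taken to pair, although same-numbered ones of 1181-Grpr correlated in their deviations at 0.404 on average. In both lines every GRP library lay above every mock library, so any matching of them would place GRP above mock. Such separation was shared by 27.6% of genes tested in 1057 and 1.34% in 1181-Grpr. In replicate 1 of 1181-Grpr, Slc16a13 under GRP stood at 1.04 times mock.

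Per length, Slc16a13 was the highest of the 3 genes in mock cells of every line. The authors' TPM of Slc16a13 in mock was 61.6 ± 36.5 in 1064, 17.4 ± 4.22 in 1014-Grpr, 9.78 ± 0.607 in 1057, 7.26 ± 0.417 in 1181-Grpr and 0.447 ± 0.216 in 1181-Ctrl (SD, n = 3). In 1014-Ctrl it was 16.8 ± 8.12 (SD, n = 3), and 21.3 ± 3.56 (SD, n = 2) without the library that went against its label. The libraries of 1014-Grpr and 1014-Ctrl overlapped, whereas 1181-Grpr lay above 1181-Ctrl in every library. The versions of 1181 also differed in Dct, at 6.94e+03 against 247 CPM, and in Xist, and the part of those differences in the level of Slc16a13 was not tested. For Slc16a11 the 4 groups of 1064 came first, from 5.28 ± 3.57 TPM under GRP to 1.46 ± 1.31 in mock (SD, n = 3), and overlapped with each other and with 1057 under GRP at 1.2 ± 0.0513 (SD, n = 3).

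Since the transporter genes end towards each other, their counts were set side by side. In mock 1057 cells Slc16a13 held 826 counts over 3 libraries while Slc16a11 held 0. In 1014-Ctrl under GRP, with 1159 counts of Slc16a13, Slc16a11 held 1, which is 0.0863%. The count of Slc16a11 was 6.21% of that of Slc16a13 in 1057 under GRP and 4.64% in 1064 under GRP. Slc16a11 therefore did not follow Slc16a13 at a fixed share.

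The rest of the neighbourhood was read in the same fits. Within 500 kb of Bcl6b, 85 genes are in the count table. In 1057, 39 genes other than the 3 described here were tested and 1 was called for GRP, Eno3, where 6.46% of all genes were called. Eno3, which encodes the muscle form of the glycolytic enzyme enolase and lies 427404 bases away on the higher side, rose from 3.04 ± 0.448 to 13.3 ± 1.21 CPM (SD, n = 3), a log2 fold change of 2.13 (SE 0.104, adjusted p = 5.55e-12, edgeR). Those 39 genes had a median log2 fold change of 0.0184. In 1014-Grpr, 0 of 39 others were called by edgeR, where 4.01% of all genes were, and 0 by DESeq2. Of these 39, 9 had an adjusted p under 0.05 (edgeR), which 29% of all genes had. In 1064, 0 of 45 were called by edgeR and 1 by DESeq2 (Slc2a4), and in 1181-Grpr 0 of 38 others by edgeR. Of all genes, edgeR called 2.32% in 1064 and 0% in 1181-Grpr, and DESeq2 called 491 of 13794 in 1064. In the blocked fit 5 were called in 1064, which are Slc16a11, Slc16a13, Slc2a4 (log2 fold change 2.02, adjusted p = 0.00305), Eno3 (1.55, adjusted p = 0.00157) and Asgr1 (1.12, adjusted p = 0.0319, all edgeR), and in 1014-Grpr, of the others, Mgl2 (1.77, adjusted p = 0.00967, edgeR). Of all genes, the blocked fit called 6.52% in 1064 and 638 of 13730 in 1014-Grpr. Slc2a4 encodes the insulin-responsive glucose transporter, and Asgr1 and Mgl2 encode lectins. These were named after their values were seen.

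The next gene with counts on the lower side of the cluster is Clec10a, a lectin gene 53294 bases from Bcl6b. Its counts were 0 in all 3 mock libraries of 1057 and 7, 8 and 3 under GRP, 0, 1 and 1 under RC and 4, 4 and 3 under GRP+RC. It was too low for a test in 1057. In 1064, where it passed the filter, its log2 fold change was 0.60 (SE 1.56, adjusted p = 0.879, edgeR) and was not called. In the fit over the 4 lines with receptor it was 2.07 (SE 0.685, adjusted p = 0.0187, edgeR) and was called, as were 2.93% of genes. Slc2a4 was called in that fit too (1.66, SE 0.386, adjusted p = 8.95e-04, edgeR). On the higher side the nearest gene with any count is Mir195a, with 3 counts over 72 libraries. Beyond it lies 0610010K14Rik, 5408 bases from Bcl6b, whose log2 fold changes for GRP were 0.26 (SE 0.244) in 1057 and −0.07 (SE 0.224) in 1014-Grpr, neither of them called (adjusted p = 0.404 and 0.843, edgeR).

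**Figure D4:**
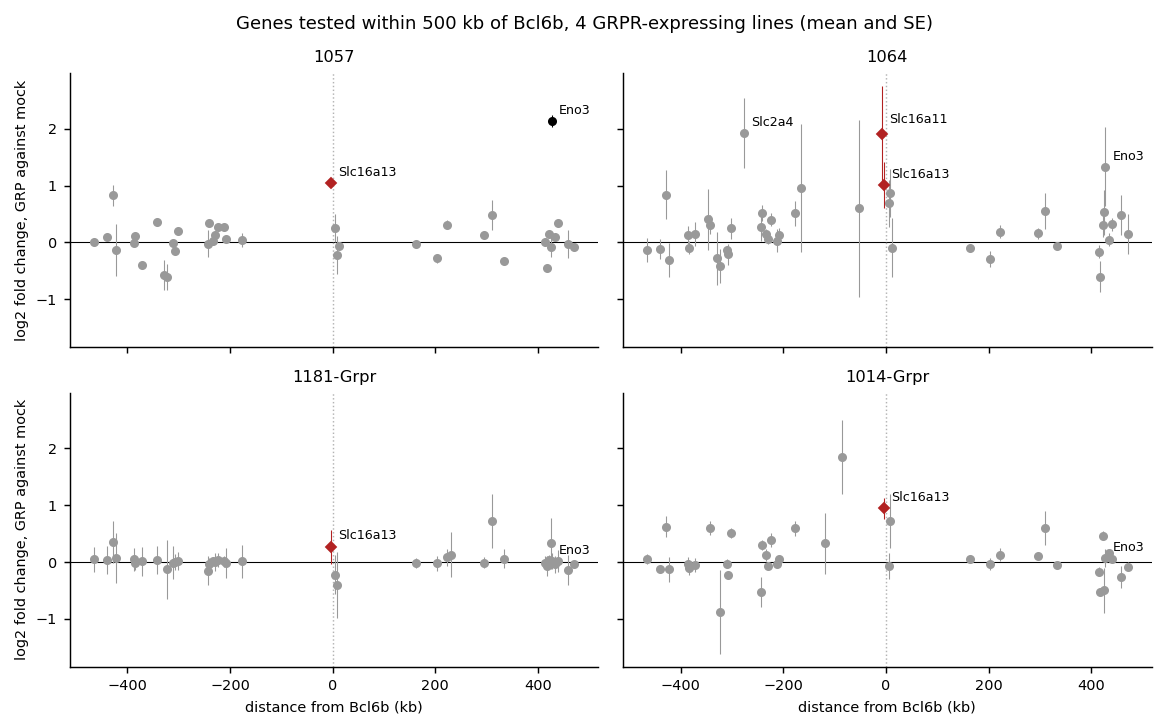
Log2 fold change for GRP against mock (vertical axis, point with SE, edgeR) of the genes tested within 500 kb of Bcl6b, against their distance from it in kb (negative on the lower side), in the 4 lines with receptor. Diamonds are Slc16a11 and Slc16a13 and black points other called genes. Bcl6b, and Slc16a11 in 1057, where mock held 0 counts, are left out. Most genes lie near 0, and Eno3 lies at 2.13 in 1057.

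The likeness of other genes to Bcl6b was measured as Pearson's r over 18 differences, each the log2 of the mean CPM + 0.5 in a treatment minus that in mock, in 6 lines by 3 treatments. These points share the mock libraries of each line, and a large part of the spread comes from 1014-Grpr, so no p is given. The highest of 16602 genes were Anxa1 (r = 0.954), which encodes annexin A1, Lif (0.952), a cytokine of the interleukin-6 family, Gdnf (0.951), Wwtr1 (0.95), which encodes TAZ, and Ddx10 (0.949), an RNA helicase gene. In 1014-Grpr the GRP difference was 2.26 for Anxa1, 5.15 for Lif, 3.07 for Gdnf, 0.86 for Wwtr1 and 0.59 for Ddx10. In 1057 it was 0.65, 1.03, 0.00, 0.22 and 0.13 in the same order. The neighbours were less like it, with r = 0.546 and rank 1881 for Slc16a13 and r = 0.19 and rank 6157 for Slc16a11. The order depends on the constant added. With 0.1 in place of 0.5, Anxa1 ranked 14, Lif 49, Gdnf 114, Wwtr1 17 and Ddx10 6, and without the 2 libraries that went against their labels Lif ranked 22. For Slc16a11 r was 0.487 (rank 2872) with 0.1 and 0.0836 (rank 7514) with 1, and for Slc16a13 it was 0.636 and 0.506.

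Genes that belong with Bcl6b by function were described from lists. Of 14 BCL6 relatives and corepressors, 12 were tested in 1057 and 0 were called by edgeR, and in 1014-Grpr 1 of 12, Bcl6 itself, was called higher, where 6.46% and 4.01% of all genes were called. Their median log2 fold change for GRP was −0.119 in 1057 and 0.115 in 1014-Grpr, beside −0.0112 and −0.0164 over all genes. The members with the highest level, the corepressor Ncor1 and Zbtb20, gave −0.30 (SE 0.0381, adjusted p = 2.44e-06) and 0.21 (SE 0.181, adjusted p = 0.363) in 1057 (edgeR). Of 9 genes of the GDNF pathway of spermatogonial stem cells, 3 of 5 tested were called higher in 1014-Grpr, namely Gdnf, Egr2 and Egr3, and 1 of 6 in both 1057 and 1064, Egr3, beside 4.01%, 6.46% and 2.32% of all genes. Egr3, an immediate early transcription factor, gave 2.07 (SE 0.081) in 1057, 1.77 (SE 0.382) in 1064 and 2.65 (SE 0.226) in 1014-Grpr, with adjusted p = 2.42e-13, 0.0247 and 6.85e-06 (edgeR). Gdnf, the ligand, went from 0.0115 ± 0.02 to 3.8 ± 1.96 CPM in 1014-Grpr (SD, n = 3). It held 3 counts or fewer in 62 of the 72 libraries and passed the filter there through its GRP libraries. Its call was therefore close to fixed in advance and adds nothing to the count of called members.

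Of 13 genes known as BCL6 targets in lymphocytes, 0 were called lower for GRP in any line by edgeR, 1 of 11 was called higher in 1057 (Ccl3) and 1 of 9 in 1014-Grpr (Cdkn1a), beside 6.46% and 4.01% of all genes. Ccl3 was near the floor, with 3 counts or fewer in 60 of the 72 libraries, so its call adds little to that count. Cdkn1a, the cell-cycle inhibitor p21, went from 93.2 ± 18.4 to 450 ± 33.1 CPM in 1014-Grpr (SD, n = 3; log2 fold change 2.27, SE 0.143, adjusted p = 1.02e-06, edgeR). The other member named by level, Ccnd2, a D cyclin, gave −0.14 (SE 0.0591, adjusted p = 0.108, edgeR) there. Whether the RNA of Bcl6b gave protein was not measured.

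Of 14 other genes of the monocarboxylate transporter family and its partners, 0 of 8 tested were called in 1057, 0 of 5 in 1064, 0 of 9 in 1181-Grpr and 1 of 7 in 1014-Grpr, Slc16a10, called higher (edgeR), beside 6.46%, 2.32%, 0% and 4.01% of all genes. Their median log2 fold change for GRP was −0.0878 in 1057 and 0.103 in 1014-Grpr. Slc16a1, the lactate transporter MCT1, was close to Slc16a13 in the size of its change, at 0.92 (SE 0.0288, adjusted p = 9.62e-15) in 1057, 0.75 (SE 0.279, adjusted p = 0.142) in 1064 and 0.95 (SE 0.0658, adjusted p = 1.77e-06) in 1014-Grpr (edgeR), all under the fold that defines a call. Bsg, which encodes the chaperone basigin, gave 0.04 (SE 0.0335, adjusted p = 0.338, edgeR) in 1057.

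Endothelial markers were examined because Bcl6b is known from endothelium. Of 12, between 1 and 5 passed the filter in a line, and Cldn5, Emcn and Sox17 held 3 counts or fewer in all 72 libraries. Over all 72 libraries Egfl7 was the most abundant, at 82.3 CPM in 1057 and 117 CPM in 1064, and 0.088 CPM in 1014-Grpr, where Bcl6b was highest. Vwf, the other member named by level, had its highest mean in 1014-Grpr, at 18.7 CPM, against 0.69 CPM in 1057. In 1057 Vwf went from 0.239 ± 0.0571 CPM in mock to 1.23 ± 0.129 CPM under GRP (SD, n = 3), and Sox18 was called lower. Vwf was too low in mock to pass the filter on those libraries alone, so no test against mock is given for it. No member of the list was called in 1014-Grpr, where 1 was tested.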

How the data were processed

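RNA was sequenced from 72 libraries as polyA-selected, strand-specific, paired-end reads. The authors aligned with STAR to mm10 (GRCm38.p5, GENCODE M13, as the methods state) after FastQC 0.11.5, per the processing notes. The authors deposited raw counts per gene, used for all tests, and TPM values, used for levels per length. The authors deposited the 12 TPM columns of 1057 with a decimal comma, another number format, read here as a decimal point. Columns of strand counted are not given in the sources used here. Positions are from GENCODE release 21 for GRCm38, which holds 99.6% of the 50600 genes.

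Groups were taken from the sample labels. Genes were filtered with filterByExpr, normalized by TMM and tested with edgeR 4.0.16 (R 4.3.3), in 1 fit per line, over the 4 lines with receptor, over the 2 controls and for the difference between versions of a line. SEs were derived from each log2 fold change and its F statistic, and 95% intervals from the SE under a normal distribution. A call required both an adjusted p (Benjamini-Hochberg) below 0.05 and a change of more than 1 on the log2 scale. DESeq2 1.42.0 and the other alternatives are described at the end, and figures used matplotlib 3.10.9. The steps were tested on simulated data. Library totals ran from 19512882 to 46862053. All pairs of replicates differed by more than sampling noise (lowest chi-square per degree of freedom 2.436).

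Same-numbered libraries of every treatment pair correlated in their deviations from group means above 0.1 in 1064 (lowest 0.583), 1014-Grpr (lowest 0.386) and 1181-Ctrl (lowest 0.74), where the numbers were taken to pair, and not in 1057 (lowest -0.154), 1181-Grpr (lowest -0.0148) or 1014-Ctrl (lowest 0.0766). That rule goes by the lowest pair. The mean over same-numbered pairs was 0.404 in 1181-Grpr and 0.312 in 1014-Ctrl, beside 0.468 in 1014-Grpr and 0.023 in 1057. Both 1181-Grpr and 1014-Ctrl hold a library that went against its label. The numbers in the labels are the sole source of the pairing.

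The 3 genes and the gene lists were chosen with earlier results of these data known. Besides the 3 genes, the text names by rule the nearest genes with counts, genes within 500 kb called in a line, the 5 genes most like Bcl6b, for each list the members called for GRP in at least 2 of the 4 lines with receptor or else the 2 of highest level, and Grpr, Xist and Ddx3y as label checks. Others are named because a small count needed them. Of the 3 genes Slc16a13 passed the filter in all 6 lines, Bcl6b in 1057, 1181-Grpr and 1014-Grpr, and Slc16a11 in 1057 and 1064.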

Additional observations from a re-analysis of the deposited data

Results flagged for a closer look

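The GRP effect on Slc16a13 differed between 1014-Grpr and 1014-Ctrl, by the test of the difference itself, once the 2 libraries that went against their labels were left out. The difference was 1.09 on the log2 scale (adjusted p = 0.00305, edgeR), and 1.08 (adjusted p = 3.17e-08, edgeR) with the replicate block as well. With all libraries it was 0.75 and did not pass (adjusted p = 0.172, edgeR). The library concerned is 1014-Ctrl mock 2, with 136 counts of Slc16a13 beside 449 and 354 in the other mock libraries of that line. Groups of 3 libraries are too small to be checked for single libraries that stand apart.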

How the results depend on the processing

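Of 469 alternative values, 431 kept their direction and side of the threshold, 20 passed it, 6 no longer did and 12 changed sign. Groups of 3 libraries and the few counts of Bcl6b and Slc16a11 limit the precision. With the replicate block, GRP against mock in 1064 was called for Slc16a11 (1.95) and Slc16a13 (1.12), among 5 genes called there within 500 kb of Bcl6b. Of all genes, 6.52% were called in that fit. In 1014-Grpr Mgl2 was called, Bcl6b being left out because it is given without a test. The block changed no other GRP call of the neighbours, and in 1057, 1181-Grpr and 1014-Ctrl the libraries were not taken to pair by number. In 1 fit of all 72 libraries the values in 1064 were 1.89 for Slc16a11 and 1.00 for Slc16a13, both past the threshold. By adjusted p alone, Slc16a13 passed in 1014-Grpr (0.94) and over the 4 lines with receptor (0.84). DESeq2 called 1 gene within 500 kb in 1064, and a window of 1 Mb held a called gene other than Bcl6b in 1014-Grpr. Without the 2 libraries that went against their labels, an alternative chosen after seeing the data, the difference between the versions of 1014 was 1.09 (1.08 with the replicate block). Slc16a13 then changed sign for GRP+RC against GRP in 1181-Grpr (-0.11, and -0.05 with the block) and for GRP in 1014-Ctrl (-0.15 and -0.13) and both controls (-0.06 and -0.12), none of them called. Leaving out 1 replicate number, the GRP effect on Slc16a13 lay between 0.84 and 1.47 in 1064 and between 0.86 and 1.09 in 1014-Grpr. In the controls it lay between -0.12 and 0.59 (1181-Ctrl), -0.16 and 0.51 (1014-Ctrl), and -0.16 and 0.55 (both). The RC effect in 1014-Grpr ranged from -0.02 to 0.20, and the difference between versions from 0.56 to 1.02 in 1014 and from -0.21 to 0.28 in 1181. The cause of these changes was not tested.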
